A study of Mus musculus with 6 samples.

Results

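The genes of the calcineurin and NFAT (nuclear factor of activated T cells) pathway were examined in RNA-Seq of stage 0 invariant natural killer T (iNKT) cells, the earliest thymic iNKT precursors after positive selection. The set consisted of 9 of the 48397 genes in the count table, taken by symbol: Nfatc1, Nfatc2, Nfatc3 and Nfat5 (transcription factors), Ppp3ca, Ppp3cb and Ppp3cc (catalytic subunits of calcineurin), Ppp3r1 (its regulatory subunit) and Rcan1 (regulator of calcineurin 1). All 9 passed the filter on low counts and were among the 12312 genes tested. Wild-type BALB/c mice and SKG mice, BALB/c mice with a hypomorphic Zap70 mutation that weakens TCR signalling, were compared at 8 to 10 weeks of age, with no treatment named in the labels and with 3 libraries per genotype. Each library came from about 1000 cells sorted as PBS57-CD1d tetramer+, CD24+, CD69+, CD44-, CD8- and low or negative for CD4, from the pooled thymi of 3 mice, so that a replicate is a pool of animals and its spread includes that of the amplification. The mutation is carried by all cells of the SKG mouse, so the thymus in which the cells were selected was mutant as well.

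Calcineurin is a calcium- and calmodulin-dependent phosphatase that is switched on when T-cell receptor (TCR) signalling through Zap70 and phospholipase C opens calcium stores and then calcium channels of the plasma membrane. It removes phosphates from NFATc proteins in the cytoplasm, which lets them enter the nucleus, often to bind DNA with AP-1 partners. Kinases such as GSK3, DYRK and casein kinase 1 reverse the step and return NFAT to the cytoplasm. Regulation of these proteins is therefore largely by phosphorylation and localization, which RNA does not report, but a short isoform of Nfatc1 and an isoform of Rcan1 are known to be transcribed in response to NFAT itself. Nfat5 stands apart in the family, since it answers to osmotic stress and does not bind calcineurin.

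Promoter sequences show where such a response could be read out, and were taken from RefSeq (GRCm38.p6), where 6 of the 9 genes matched with 9 entries. The windows are the 250 bases before an annotated start, written on the strand of the gene, and 4 are shown because Nfatc3 differed most in level among the genes with an entry and because Rcan1 is the feedback gene of the pathway. Capitals mark GGAAA, the core bound by NFAT, on either strand (TTTCC on the other), and TGANTCA, the AP-1 site. These motifs did not overlap each other in the windows.
Nfatc3, chr8:106058568-106058817, + strand: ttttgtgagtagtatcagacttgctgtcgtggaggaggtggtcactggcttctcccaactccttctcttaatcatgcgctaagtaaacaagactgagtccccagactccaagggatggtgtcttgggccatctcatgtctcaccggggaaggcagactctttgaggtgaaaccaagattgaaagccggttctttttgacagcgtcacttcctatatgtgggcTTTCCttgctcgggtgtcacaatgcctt
Nfatc3, chr8:106059340-106059589, + strand: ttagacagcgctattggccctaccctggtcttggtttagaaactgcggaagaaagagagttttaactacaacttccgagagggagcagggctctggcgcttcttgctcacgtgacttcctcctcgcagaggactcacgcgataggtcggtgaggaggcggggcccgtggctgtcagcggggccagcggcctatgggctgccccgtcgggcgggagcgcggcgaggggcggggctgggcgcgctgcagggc
Rcan1, chr16:92466170-92466419, - strand: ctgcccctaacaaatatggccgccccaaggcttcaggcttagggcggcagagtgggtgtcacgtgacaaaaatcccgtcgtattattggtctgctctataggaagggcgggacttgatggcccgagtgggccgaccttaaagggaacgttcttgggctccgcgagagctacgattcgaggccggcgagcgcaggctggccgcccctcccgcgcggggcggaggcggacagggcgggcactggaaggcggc
Rcan1, chr16:92400079-92400328, - strand: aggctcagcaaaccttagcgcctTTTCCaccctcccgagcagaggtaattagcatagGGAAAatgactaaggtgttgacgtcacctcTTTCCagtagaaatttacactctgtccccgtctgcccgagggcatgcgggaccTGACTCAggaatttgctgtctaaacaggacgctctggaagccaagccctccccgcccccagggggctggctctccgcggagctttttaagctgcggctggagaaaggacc

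The windows at the 2 starts of Rcan1 differed in motif content. Both windows lie inside the annotated gene. The one further downstream held 3 GGAAA cores, 227, 193 and 163 bases before the start, and a TGANTCA site 110 bases before it. The window of the more upstream start held neither. Of all 32851 promoter entries of the same length, 6.39% held at least 3 GGAAA cores and 6.75% held TGANTCA. The first Nfatc3 window had a GGAAA core 28 bases before its start and the second had none; at least 1 core was found in 55.6% of all entries. Among the other entries, those of Nfatc2 held 1 and 3 cores, that of Nfat5 2, that of Ppp3cb 3 and that of Ppp3r1 none. None of the 4 windows overlapped an annotated exon. A match describes letters only, and the counts per gene do not tell which start was used.

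Levels are given as CPM, the reads of a gene per 1000000 reads of its library after TMM normalization (a scaling that balances library composition). Counted reads ranged from 37176544 to 43115544 per library and genes with at least 10 reads from 10835 to 14791, with both ends of the latter range among SKG libraries. The median coefficient of variation between libraries of one genotype was 37.5% in BALB/c and 38.4% in SKG over the genes tested, and that of Nfatc1 was 0.989% in BALB/c and 21.5% in SKG. The medians cover genes of all levels, while Nfatc1 ranked 33 by mean CPM, and genes of like level were not compared. Cd3e was at 798 CPM or more in every library and Cd44 at 14.5 CPM or less. Of the genes used in the sort, Cd69 was lower in SKG without overlap, at 353 ± 39.9 CPM for BALB/c against 193 ± 50.4 for SKG (± SD, n = 3 libraries each, edgeR unadjusted p = 0.00640, adjusted p = 0.686), and its part in the differences given below was not tested. On the genes edgeR tested, DESeq2 called Cd69 at the thresholds given below (adjusted p = 0.0438 without and 0.0399 with shrinkage of fold changes). On all genes with a read it did not. Cd24a RNA was at 7.31 to 52.4 CPM in BALB/c and 31.9 to 90.7 CPM in SKG. The summed CPM of the markers overlapped between genotypes for double-positive thymocytes (38.2 to 394 in BALB/c, 54.4 to 151 in SKG), B cells (6.87 to 94.9 and 4.59 to 45.0), myeloid cells (99.0 to 228 and 75.2 to 277), erythroid cells (0.0270 to 69.7 and 0.0515 to 0.691) and thymic epithelium (28.1 to 40.3 and 10.0 to 86.9). BALB/c replicate 1 stood apart in these sums, with the highest one of double-positive thymocyte, B-cell and erythroid markers. SKG replicate 3 had the highest sums of myeloid (277, with Lyz2 at 107 CPM) and thymic epithelial markers (86.9). It also had the fewest genes with at least 10 reads, 10835. Ighm made up most of the B-cell sum of BALB/c replicate 1, at 88.1 CPM, against 3.52 to 36.6 CPM in the other libraries. The thymic epithelium sums were almost wholly Epcam (10.0 to 86.9 CPM), while Krt5 and Psmb11 had 0 reads in every library. Cst3 (69.1 to 163 CPM) was the largest part of each myeloid sum. These sums therefore rest on few genes and do not by themselves show the cell type. Estimates without BALB/c replicate 1 and without SKG replicate 3 were made for the genes of the calcineurin and NFAT set and for their shares and ratios. For other genes, including Cd69 and those of the lists given below, only the number of called genes was repeated without each. Zap70, whose mutation is not visible in counts per gene, was at 374 to 498 CPM in BALB/c and 322 to 409 CPM in SKG, with overlapping libraries (edgeR, unadjusted p = 0.0967, adjusted p = 0.953). In sorted bulk samples, fewer cells expressing a gene cannot be told apart from less RNA per cell.

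The 9 genes spanned a wide range of expression. Levels of different genes are compared only as CPM per kilobase of merged annotated exons. On the per-kilobase scale the mean level over the 6 libraries was 219 for Nfatc1, 41.1 for Ppp3r1, 15.0 for Nfatc3, 13.7 for Ppp3cc, 12.5 for Rcan1, 4.67 for Nfatc2, 3.66 for Ppp3cb, 1.21 for Ppp3ca and 0.968 for Nfat5. Nfatc1 lay above Ppp3r1, Ppp3r1 above Nfatc3, and Rcan1 above Nfatc2 in 6 of 6 libraries. Other neighbours in the order were not told apart, since Nfatc3 exceeded Ppp3cc in 3 of 6 libraries, Ppp3cc exceeded Rcan1 in 4 of 6, Nfatc2 exceeded Ppp3cb in 3 of 6 and Ppp3ca exceeded Nfat5 in 4 of 6. Ppp3cb exceeded Ppp3ca in 5 of 6. Nfatc1 ranked 131 by CPM per kilobase among the 11942 tested genes with an annotated length.

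**Figure D1:**
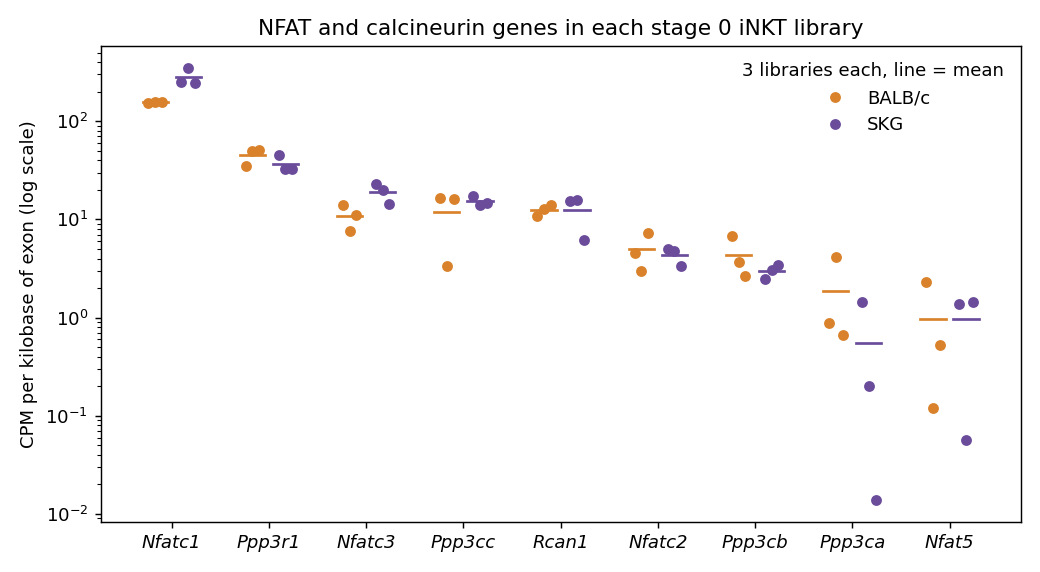
Level of each gene (x axis) in each library as CPM per kilobase of merged exons (y axis, log scale), with the 3 BALB/c libraries in orange, the 3 SKG libraries in purple and a line at the mean of each group. Nfatc1 stood highest, at a mean of 156 in BALB/c and 283 in SKG, and Ppp3ca and Nfat5 scattered most between libraries.

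At the thresholds of the study (a false discovery rate, FDR, under 0.1 with 1.5-fold or more between genotypes), 0 of the 9 genes were called by edgeR's quasi-likelihood test, against 0 of 12312 genes, or 0%, over the whole table. At an unadjusted p under 0.05 there were 2 of the 9, Nfatc1 and Nfatc3, both higher in SKG, whereas 671 genes, or 5.45% of all tested, had such a p and 3.07% had it with a higher level in SKG. The same 2 genes had libraries that did not overlap between the genotypes, which held for 13.9% of all genes, namely for 6.77% with the higher level in SKG and for 7.12% with the lower level there. A log2 fold change above 0 was found for 3 of the 9 genes, against 49% of all. Limma-voom likewise called 0 of the 9 and 0 genes in all, with 968 at an unadjusted p under 0.05. DESeq2, the tool of the study, called 1 of the 9, Nfatc1, in each of 4 fits. On all 25935 genes with a read it called 370 genes (1.43%) without and 231 (0.891%) with shrinkage of the fold changes, and on the same 12312 genes as edgeR it called 189 (1.54%) and 146 (1.19%). Only genes given an adjusted p could be called, in the same order 14342, 13862, 11647 and 6816. The shares among those genes are therefore higher than the percentages given. Nfat5 and Ppp3ca had no adjusted p in the last of these fits. The median log2 fold change of SKG over BALB/c was -0.03 over the 9 genes and -0.02 over all genes tested.

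Nfatc1 encodes NFATc1, the NFAT factor whose transcription NFAT itself amplifies in stimulated lymphocytes, and spans 80606205 to 80713071 of chromosome 18 (GRCm38, as for all positions). BALB/c replicates 1 to 3 gave 47598, 43634 and 52854 reads, and SKG replicates 1 to 3 gave 75311, 102349 and 66133. Expressed as CPM, the BALB/c libraries were at 1154, 1176 and 1170 and the SKG libraries at 1869, 2633 and 1829. Every SKG library was thus above every BALB/c library, with the BALB/c libraries almost equal and SKG replicate 2 above the other SKG libraries. The means were 1167 ± 11.5 CPM for BALB/c against 2110 ± 453 for SKG (± SD, n = 3 libraries each), a fold change of 1.81. On the log2 scale this was 0.85 with a standard error of 0.17 and a 95% interval from 0.45 to 1.26 (edgeR's quasi-likelihood test, unadjusted p = 0.00168, adjusted p = 0.617). DESeq2 gave an adjusted p of 0.0250 without and 0.0303 with shrinkage on all genes with a read, and 8.45e-05 and 8.94e-05 on the genes tested by edgeR. Over all alternatives run the adjusted p lay between 8.45e-05 and 1. Leaving out each library in turn kept the log2 fold change between 0.67, when SKG replicate 2 was dropped, and 0.96, when SKG replicate 3 was dropped. Reads per gene do not separate the long and short isoforms of Nfatc1.

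Nfatc3, which encodes a factor abundant in thymocytes and active around positive selection, showed a difference of like size with a wider spread. It spans 106058840 to 106130537 of chromosome 8 and was covered by 6723, 3323 and 5896 BALB/c reads and 10822, 9151 and 6111 SKG reads. In CPM these were 163, 89.6 and 131 against 269, 235 and 169. The lowest SKG library, replicate 3, lay just above the highest BALB/c library, replicate 1. The means were 128 ± 36.8 CPM for BALB/c against 224 ± 50.7 for SKG (± SD, n = 3 libraries each), a log2 fold change of 0.81 with a standard error of 0.28 (edgeR, unadjusted p = 0.0255, adjusted p = 0.834). None of the 4 DESeq2 fits called the gene, the lowest adjusted p being 0.179. The direction held in every leave-one-out fit, with log2 fold changes from 0.61 to 1.03, but the unadjusted p rose over 0.05 without BALB/c replicate 2 (0.0678), BALB/c replicate 3 (0.0626), SKG replicate 1 (0.0902) or SKG replicate 2 (0.0637), and with the number in the library name as a block (0.0779). Exons of Esrp2, on the other strand, overlap those of Nfatc3 over 219 bases. Strand was not used in counting, so reads from that stretch match both genes, and how they were treated was not given in the sources used here. Esrp2 itself had at most 502 reads in a library.

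Nfatc2 (NFATc2, on chromosome 2 from 168476410 to 168601657), the NFAT factor present in resting T cells, had 1966, 1181 and 3509 reads for BALB/c against 2116, 1981 and 1292 for SKG. In CPM the libraries were at 47.7, 31.8 and 77.7 against 52.5, 51.0 and 35.7. The SKG libraries fell within the range of the BALB/c libraries. Its log2 fold change was -0.18 with a 95% interval from -1.17 to 0.82 (edgeR, adjusted p = 0.991), and it became 0.23 without BALB/c replicate 3. As a share of the summed NFAT genes per kilobase, Nfatc2 took 2.57%, 1.79% and 4.18% in BALB/c and 1.78%, 1.28% and 1.28% in SKG, with BALB/c replicate 2 and SKG replicate 1 nearly equal. Since Nfatc1 dominates this sum, the share moves with Nfatc1.

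Nfat5, on chromosome 8 from 107293470 to 107379517, was the least expressed of the 9 genes per kilobase and the most uneven of the NFAT genes between replicates. It had 1733, 81 and 441 reads for BALB/c against 1027, 40 and 951 for SKG, or 42.0, 2.18 and 9.76 CPM against 25.5, 1.03 and 26.3. BALB/c replicate 1 was highest and, within each genotype, replicate 2 lowest, and the highest library exceeded the lowest by 19.2 times in BALB/c and 25.6 times in SKG. SKG over BALB/c gave a log2 fold change of -0.03 with a 95% interval from -3.34 to 3.28 (edgeR, adjusted p = 0.999). It became 1.56 without BALB/c replicate 1 and 0.54 without SKG replicate 2. A difference of several fold in either direction was therefore not detectable for this gene. The remaining family gene, Nfatc4, had 77 reads in SKG replicate 2 and 0 in the other 5 libraries, where a count of 0 allows up to 3 reads, or at most 0.0830 CPM in a single library.

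Nfatc1 made up 88.2%, 93.6% and 89.2% of the summed NFAT level per kilobase in BALB/c and 89.5%, 93.4% and 92.7% in SKG. The share overlapped between genotypes, while the sum itself was 173 ± 4.15 CPM per kilobase for BALB/c against 307 ± 61.5 for SKG (± SD, n = 3 libraries each), without overlap. Nfatc3 followed with 6.27% ± 1.70 for BALB/c against 6.32% ± 1.62 for SKG (± SD, n = 3 each).

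Of the calcineurin subunits, Ppp3r1 was the most expressed. It encodes a form of calcineurin B, the calcium-binding regulatory subunit, and lies on chromosome 11 from 17159263 to 17200375. BALB/c gave 4712, 5943 and 7400 reads and SKG 5914, 4098 and 3811, corresponding to 114, 160 and 164 CPM against 147, 105 and 105. SKG replicates 2 and 3 were below all BALB/c libraries and SKG replicate 1 was within their range. The log2 fold change was -0.29 with a 95% interval from -0.86 to 0.27 (edgeR, adjusted p = 0.991), and it stayed between -0.48 and -0.20 with any 1 library left out. Exons of Wdr92 on the same strand overlap those of Ppp3r1 over 462 bases, and how the authors' counting treated reads shared by both was not given in the sources used here. Wdr92 had 275, 1920 and 1116 reads for BALB/c against 1723, 1436 and 642 for SKG.

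Ppp3cc, the catalytic subunit best known from testis, was the leading catalytic transcript per kilobase in 5 of the 6 libraries. It lies on chromosome 14 from 70217865 to 70289471 and had 2035, 370 and 2163 reads for BALB/c against 2093, 1618 and 1590 for SKG. The CPM were 49.3, 9.98 and 47.9 against 51.9, 41.6 and 44.0, so that BALB/c replicate 2 stood far below the other 5 libraries. The log2 fold change of 0.36 had a 95% interval from -1.10 to 1.82 (edgeR, adjusted p = 0.991) and became -0.09 without BALB/c replicate 2. Exons of Gm49417, on the other strand, overlap those of Ppp3cc over 91 bases, and that gene was not analysed here.

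Ppp3cb, on chromosome 14 from 20499364 to 20546573, encodes the beta catalytic subunit, which is known to carry much of the calcineurin activity of T cells. It had 2443, 1191 and 1053 reads for BALB/c against 870, 1054 and 1091 for SKG, or 59.2, 32.1 and 23.3 CPM against 21.6, 27.1 and 30.2. The libraries overlapped, with BALB/c replicate 1 above the rest. That library was also highest for Nfat5. It had the highest sums of double-positive thymocyte, B-cell and erythroid markers, but not of myeloid or thymic epithelial markers. Whether these markers bear on either gene was not tested. The log2 fold change of Ppp3cb was -0.54 with a 95% interval from -1.69 to 0.61 (edgeR, adjusted p = 0.991), and it shrank to -0.07 without BALB/c replicate 1.

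Ppp3ca, on chromosome 3 from 136670124 to 136937727, encodes the alpha catalytic subunit. It had 362, 1518 and 297 reads for BALB/c against 575, 78 and 5 for SKG, or 8.78, 40.9 and 6.58 CPM against 14.3, 2.01 and 0.138. The highest SKG library was 103 times the lowest, and SKG replicate 1 lay above BALB/c replicates 1 and 3. The log2 fold change of -1.78, the largest of the 9 genes, had a 95% interval from -5.56 to 2.01 (edgeR, adjusted p = 0.991). It ranged from -4.11 without SKG replicate 1 to -0.49 without BALB/c replicate 2, so that its size rested on single libraries.

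The share of Ppp3cc among the catalytic subunits was nearly equal in the 3 SKG libraries, while that of Ppp3ca varied in both genotypes. Ppp3cc took 68.5%, 30.1% and 82.9% of the summed catalytic level per kilobase in BALB/c and 81.8%, 81.0% and 81.1% in SKG. Ppp3ca took 3.64%, 37.0% and 3.40% in BALB/c and 6.72%, 1.17% and 0.0762% in SKG. Most of the gap was gone without BALB/c replicate 2, as the difference in the Ppp3cc share, SKG minus BALB/c, was 20.7 percentage points with all libraries and 5.56 without that one. The summed catalytic level was 18.2 ± 6.60 CPM per kilobase for BALB/c against 18.9 ± 2.12 for SKG (± SD, n = 3 libraries each). The level of Ppp3r1 was 2.86 ± 1.52 times this sum for BALB/c against 1.94 ± 0.175 times for SKG (± SD, n = 3 each), with overlapping libraries, and the difference of -0.912 fell to -0.102 without BALB/c replicate 2. These shares and ratios were given no test.

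**Figure D2:**
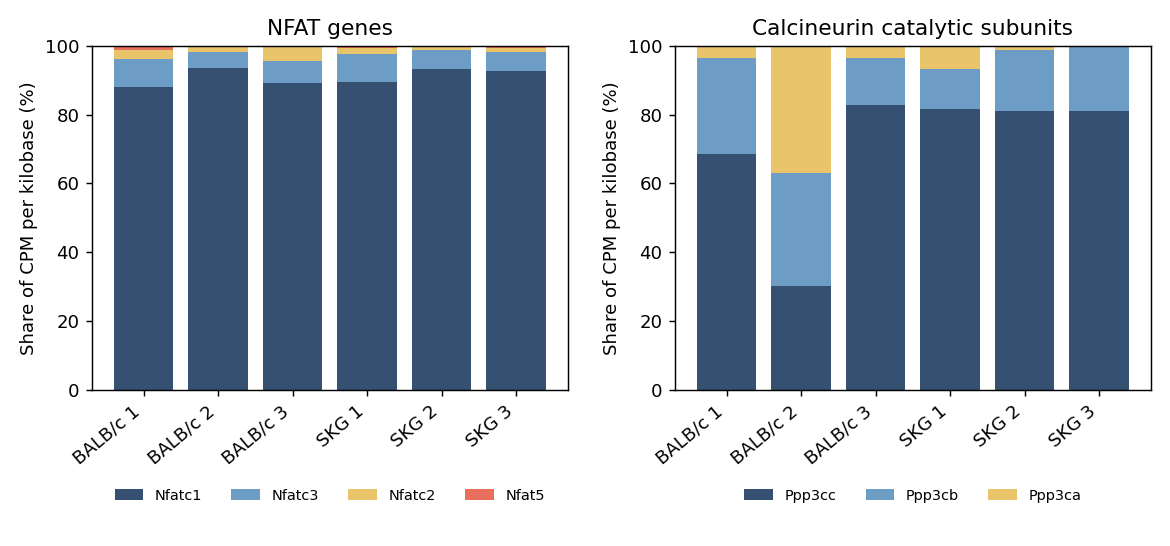
Stacked bars of the share of each gene (y axis, % of the summed CPM per kilobase) in each of the 6 libraries (x axis), for the NFAT genes at left and the calcineurin catalytic subunits at right. Nfatc1 filled at least 88.2% of the NFAT bar in every library, and BALB/c replicate 2 was the only library in which Ppp3cc did not lead the catalytic subunits.

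Rcan1 encodes an inhibitor of calcineurin that is transcribed in response to NFAT as negative feedback, and lies on chromosome 16 from 92391953 to 92470867. BALB/c gave 1375, 1451 and 1944 reads and SKG 1935, 1874 and 689, or 33.3, 39.1 and 43.0 CPM against 48.0, 48.2 and 19.1. SKG replicates 1 and 2 were above all BALB/c libraries and SKG replicate 3 below all of them. The means were 38.5 ± 4.88 CPM for BALB/c against 38.4 ± 16.8 for SKG (± SD, n = 3 libraries each). The log2 fold change was -0.0026 with a 95% interval from -1.10 to 1.09 (edgeR, adjusted p = 1.00), so that a change of up to about 2-fold in either direction was not resolved. Its sign was positive without SKG replicate 3 (0.33), BALB/c replicate 3 (0.095) or BALB/c replicate 2 (0.0042). Rcan1 relative to the summed catalytic subunits per kilobase was 0.771 ± 0.351 for BALB/c against 0.660 ± 0.290 for SKG (± SD, n = 3 each). The reads do not separate transcripts from the 2 starts shown above.

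**Figure D3:**
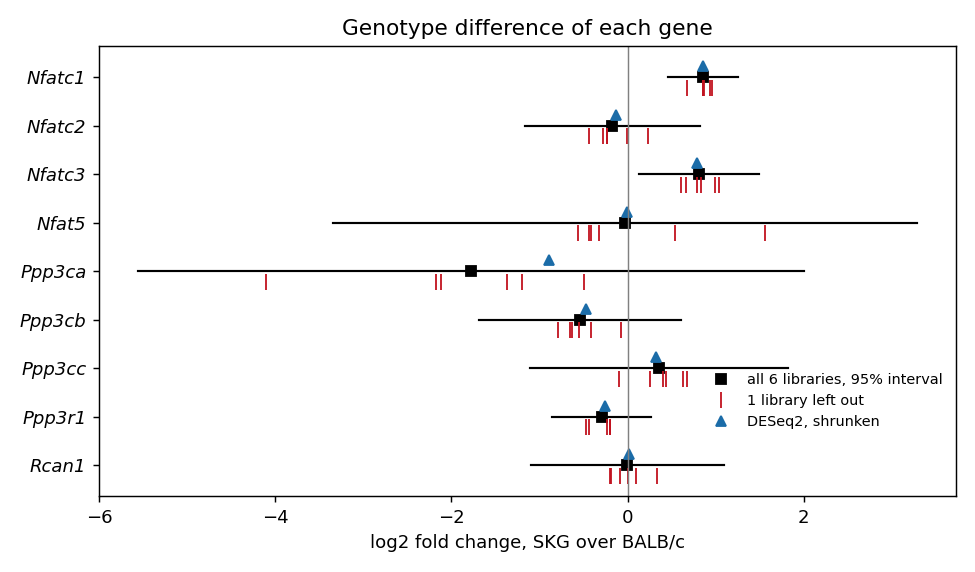
Log2 fold change of SKG over BALB/c (x axis) for each of the 9 genes (y axis). Black squares are edgeR estimates from all 6 libraries with their 95% intervals, red ticks the estimates with 1 library left out and blue triangles DESeq2 estimates with shrinkage. The intervals of Nfatc1 and Nfatc3 lie above 0, and those of Nfat5 and Ppp3ca are the widest.

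The pattern over the 6 libraries was also compared with that of every tested gene, as Pearson's r of log2 CPM and as a description only, since the libraries share depth and composition and 6 points leave many genes with a high r. The genes closest to Nfatc1 were Ttc14 (r = 0.994), Gm17552 (r = 0.981) and Cd180 (r = 0.978), of which Cd180 had at most 2 reads in a BALB/c library. Those closest to Rcan1 were Airn (r = 0.996), Zfp629 (r = 0.995) and the TCR segment Trav13-1 (r = 0.995), which share its low value in SKG replicate 3. Between the genes of the pathway themselves, r was 0.77 for Nfatc1 and Nfatc3 and 0.09 for Nfatc1 and Rcan1.

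Genes around calcineurin and NFAT were listed by role. In the list for calcium entry, 11 of 11 genes were tested, 1 had an unadjusted p under 0.05 with a higher level in SKG and 0 a lower one, against 3.07% and 2.38% of all genes. A log2 fold change above 0 was found for 8 of the 11, against 49% of all genes. The median log2 fold change was 0.30, against -0.02 over all genes. Plcg1, the phospholipase that links Zap70 to calcium release, was at 298 ± 49.9 CPM for BALB/c against 466 ± 12.1 for SKG (± SD, n = 3 libraries each), without overlap (log2 fold change 0.64, standard error 0.16, edgeR unadjusted p = 0.00605, adjusted p = 0.686). Saraf, a brake on store-operated entry and the most expressed gene of this list per kilobase, had a log2 fold change of 0.14 (edgeR, adjusted p = 0.991).

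Among the calcineurin partners, 8 of 11 genes were tested and 0 had an unadjusted p under 0.05, against 5.45% of all genes. Calm2, a calmodulin gene, led this list per kilobase with a log2 fold change of -0.31 (edgeR, adjusted p = 0.971). Calmodulin is the calcium sensor of calcineurin. Of the NFAT kinases, export and retention factors, 12 of 13 were tested and 0 had an unadjusted p under 0.05. The casein kinase 1 genes Csnk1d and Csnk1a1, whose products phosphorylate NFAT, led this list with log2 fold changes of 0.32 and 0.12 (edgeR, adjusted p = 0.991 for both). Of the nuclear partners of NFAT, 8 of 11 were tested. Jun, a subunit of AP-1, was the 1 gene of that list with an unadjusted p under 0.05, at 31.3 ± 14.4 CPM for BALB/c against 72.8 ± 30.0 for SKG (± SD, n = 3 libraries each), without overlap (log2 fold change 1.22, edgeR unadjusted p = 0.0496, adjusted p = 0.912). Gata3 and Junb, the most expressed partners per kilobase, had log2 fold changes of -0.17 and -0.28 (edgeR, adjusted p = 0.991 for both).

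Known NFAT target genes did not share one direction. Of 24 listed genes 16 were tested, of which 0 had an unadjusted p under 0.05 with a higher level in SKG and 2 with a lower one, against 2.38% of all genes for the lower direction. Tnfrsf9, the costimulatory receptor 4-1BB, was at 171 ± 33.8 CPM for BALB/c against 65.0 ± 6.82 for SKG (± SD, n = 3 libraries each), without overlap, a log2 fold change of -1.39 (standard error 0.22, edgeR unadjusted p = 0.000464, adjusted p = 0.617). DESeq2 on all genes with a read called it with an adjusted p of 3.04e-05 without and 3.20e-05 with shrinkage. Egr2, a transcription factor that NFAT induces and that the study singled out on these same samples, was at 1546, 1097 and 1408 CPM for BALB/c against 883, 956 and 493 for SKG, without overlap, a log2 fold change of -0.80 (edgeR unadjusted p = 0.0243, adjusted p = 0.834). Pdcd1, which encodes PD1, was the most expressed target per kilobase, with a mean of 1905 ± 93.0 CPM for BALB/c against 2088 ± 457 for SKG (± SD, n = 3 each). Its log2 fold change was 0.13 with a 95% interval from -0.29 to 0.55 (edgeR, adjusted p = 0.991). The median over the 16 tested targets was 0.16, with 9 above 0 and 7 below.

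**Figure D4:**
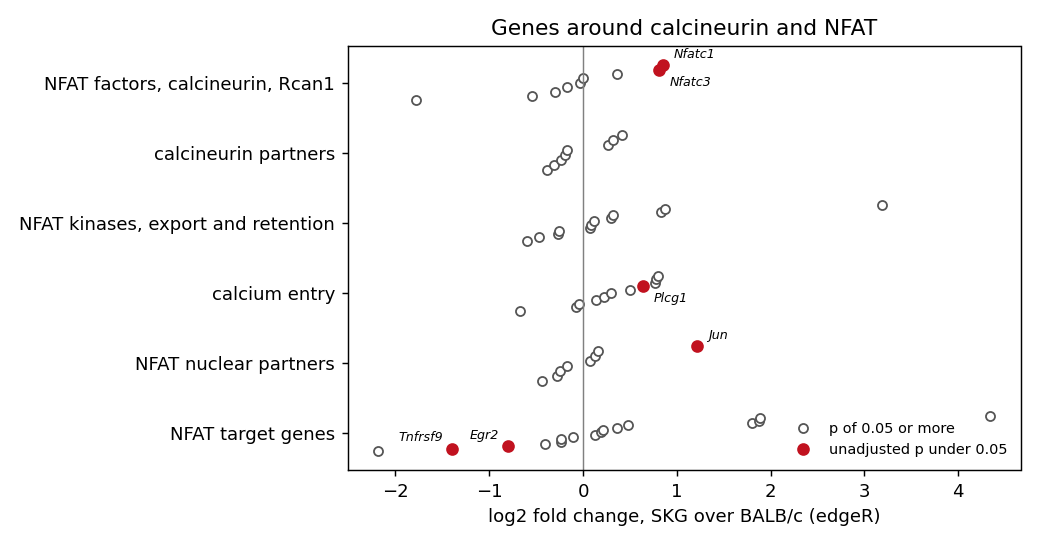
Log2 fold change of SKG over BALB/c by edgeR (x axis) for each tested gene of the set of 9 and of the 5 lists around it (y axis). Filled red points have an unadjusted p under 0.05 and are named, open points do not. Nfatc1, Nfatc3, Plcg1 and Jun lie above 0, and Tnfrsf9 and Egr2 below.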

How the data were processed

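RNA-Seq of 6 libraries of sorted thymic iNKT cells was analysed, grouped by the genotype in the labels. The authors aligned 50-nt reads to GRCm38 with Hisat2 2.1.0 and counted those overlapping exons of the Ensembl annotation with featureCounts (Subread 1.4.4), unstranded, if their mapping quality was 10 or higher. The deposited counts are whole numbers, not normalized or filtered. A second deposited table holds the authors' DESeq2 comparison of the genotypes and was not used. For amplification, SMART-Seq v4 with 18 cycles is given in the labels and another kit in the paper's methods, so the kit is uncertain. PCR copies cannot be told from separate molecules, and the limit given for a count of 0 covers counting error only.

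In R 4.3.3, genes were filtered with filterByExpr, scaled by TMM and tested with edgeR 4.0.16 (quasi-likelihood, no covariates, Benjamini-Hochberg over 12312 genes). DESeq2 1.42.0 (on all genes with a read and, chosen after seeing the data, on the genes edgeR tested), limma 3.58.1 (voom), other scalings and filters, both replicate numbers (in the title and in the library name) as a block and leaving out each library were alternatives. The 95% intervals of log2 fold changes use the standard error and the t distribution of edgeR's fit. Lengths and positions are from GENCODE M21 (GRCm38), which matched 96.0% of genes by symbol. A two-sided exact permutation test of 3 against 3 libraries cannot give a p below 0.1 and was not used. Named were the 9 genes, Nfatc4, Zap70, genes overlapping their exons, from each list the genes with an unadjusted p under 0.05 and the 2 most expressed per kilobase, and the 3 genes most like Nfatc1 and Rcan1. Some genes that this rule names are not reported here. Genes outside this rule, the markers Cd69, Cd24a, Cd44, Cd3e, Ighm, Epcam, Krt5, Psmb11, Cst3 and Lyz2 and those in the closing section, were chosen after their values were seen. The 9 genes and the lists were chosen with earlier results of these data known.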

Additional observations from a re-analysis of the deposited data

How the results depend on the processing

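With edgeR's quasi-likelihood test 0 genes were called in all, 0 of the 9 and 0 of the genes in the lists around them. These counts stayed at 0 with other scalings, limma-voom, a stricter filter, both blocks, the FDR threshold at 0.05, no minimum fold change and each library left out (lowest 0, highest 0), although the FDR and fold-change settings could not have added a call. Without a filter on low counts 2 genes were called, neither in the set nor in the lists. DESeq2 without shrinkage, run on 25935 genes and thus with another filter as well as another test, called 370 genes, 1 of the 9 (Nfatc1) and 3 in the lists (Tnfrsf9, Plcg1 and Irf4), with a median log2 fold change of 0.12 over its genes. With shrinkage it called 231, 1 of the 9 (Nfatc1) and 1 in the lists (Tnfrsf9). On the 12312 genes of edgeR, an alternative chosen after seeing the data, DESeq2 called 189 without and 146 with shrinkage, in both fits 1 of the 9 (Nfatc1) and 2 in the lists (Tnfrsf9 and Plcg1). Genes without an adjusted p, among them Nfat5 and Ppp3ca with shrinkage, could not be called.

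Nfatc1, Nfatc3, Ppp3ca, Ppp3cb and Ppp3r1 kept their direction under all 18 alternatives. Nfatc2 reversed without BALB/c replicate 3 (range with 1 library left out -0.44 to 0.23) and with the block on the number in the library name (0.13). Nfat5 reversed without BALB/c replicate 1 or SKG replicate 2 (-0.56 to 1.56). Ppp3cc reversed without BALB/c replicate 2 (-0.092 to 0.67). Rcan1, near 0, reversed with DESeq2 size factors in edgeR (0.017), DESeq2 without shrinkage (0.022) and with it (0.020), on the genes of edgeR 0.017 and 0.012, and without BALB/c replicate 2, BALB/c replicate 3 or SKG replicate 3 (-0.19 to 0.33). The cause was not tested. Differences in composition moved by less than the SD pooled over both genotypes, which BALB/c replicate 2 widens for the catalytic subunits. Ppp3r1 over the catalytic sum went from -0.912 to -0.143 with raw counts. Signs turned for Rcan1 over that sum (0.0751 without BALB/c replicate 2, 0.0485 without SKG replicate 3 and 0.0587 with raw counts), for the Nfat5 share (0.164 percentage points without BALB/c replicate 1) and for the Nfatc3 share, near 0 (-0.812 without BALB/c replicate 2 and -0.882 without SKG replicate 1). Residuals of libraries with the same title number correlated between -0.145 and -0.00962. Those with the same number in the library name correlated at -0.0384 and 0.00289. These values gave no sign of pairing by either number, but 3 libraries per genotype cannot settle it. The title-number block gave 0.83 for Nfatc1 and 0.83 for Nfatc3. The block on the number in the library name gave 0.91 (unadjusted p = 0.0340, edgeR) and 0.72 (unadjusted p = 0.0779, edgeR). Both blocks called 0 genes. With merged exons or the longest transcript Nfatc1 and Ppp3r1 led in level, while Ppp3cc and Rcan1, and Nfatc2 and Ppp3cb, exchanged places.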

Other observations

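Several classical NFAT targets of effector T cells, but not all, were barely counted at stage 0. Tnf, Fasl and Csf2 had 0 reads in all 6 libraries, and Il2, the growth factor of activated T cells, had 8, 5 and 10 reads for BALB/c against 6, 8 and 0 for SKG. Ifng had 312 reads in BALB/c replicate 1 and 0 elsewhere. Irf4, a factor induced by TCR signals, had 1, 597 and 68 reads for BALB/c against 2, 0 and 2 for SKG, with overlapping libraries, and did not pass the filter on low counts. Il4, the cytokine of iNKT2 cells, had 67 reads or more in every library and was at 6.09 ± 1.63 CPM for BALB/c against 5.17 ± 4.57 for SKG (± SD, n = 3 libraries each). Cd40lg, another listed target, was well counted, at 78.5 to 118 CPM in BALB/c and 75.3 to 122 CPM in SKG.

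None of the Nr4a orphan receptor genes, which calcium signals induce, had an unadjusted p under 0.05 in edgeR. Nr4a2 was at 112 ± 59.1 CPM for BALB/c against 24.7 ± 22.4 for SKG (± SD, n = 3 libraries each), without overlap, at a log2 fold change of -2.18 (edgeR, unadjusted p = 0.0612, adjusted p = 0.947). Nr4a1 had a log2 fold change of -0.24 and Nr4a3 one of 1.88 (edgeR, adjusted p = 0.991 and 0.988).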
